A study of Homo sapiens with 12 samples.

Results

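Solute carriers are the membrane proteins that move nutrients, ions, metals and metabolites into and out of cells and organelles. Their messenger RNAs were followed here in LNCaP, a line of human prostate adenocarcinoma cells that responds to androgen. Members were taken by symbol (SLC, a family number, A and a member number, with 1 symbol per probe set) and by level: the probe set with the highest mean had to exceed a log2 value of 5 on at least 3 of the 12 arrays. Of 348 such symbols on the array, 152 met the rule and 196 did not, against 19775 genes with a single-symbol probe set in the series. The 152 fell into 44 families. Of these, 132 lay above 5 on all 12 arrays, 20 did not, and 4 (SLC7A2, SLC25A35, SLC25A5-AS1 and SLC26A3) passed through the arrays of a single group. Counting these, 9 members passed in 1 treatment or with 1 siRNA alone, the others being SLC2A3 and SLC15A2 (R1881), SLC6A11 (vehicle), SLC4A11 (SRF siRNA) and SLC9A8 (control siRNA). For these 9 a difference between those conditions was built into their choice, so it is described below with no p-value, and they are not among the 132. SLC25A35 and SLC9A8 are outside the rule by which genes are named and were added after their values were seen. The rule reads symbols, so 6 members are named after a carrier without being one: SLC12A2-DT, SLC25A5-AS1, SLC2A4RG, SLC4A1AP, SLC71A3P and SLC9A3-OT1. The members just inside the level threshold had third-highest arrays of 5.04 (SLC6A11), 5.04 (SLC25A5-AS1) and 5.06 (SLC2A3), and the genes just outside it had 4.95 (SLC25A42), 4.87 (SLC6A9) and 4.83 (SLC29A1).

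The 4 groups of 3 arrays crossed an siRNA with a hormone. All cells were deprived of androgen for 48 h, transfected, and 42 h later treated for 48 h. The groups were SRF siRNA with 5 nM R1881, SRF siRNA with ethanol vehicle, control siRNA with 5 nM R1881, and control siRNA with ethanol vehicle. R1881 is a synthetic androgen, and SRF (serum response factor) is a transcription factor known for muscle, actin and growth-factor response genes. The design asks which genes answer to androgen and which of them need SRF. The labels call the arrays of a group biological replicates without saying that they came from separate cultures, so a p-value here measures only how far these arrays spread, which may be technical. LNCaP is a single line, and SRF messenger RNA was lowered, not removed.

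Solute carriers are grouped into families by sequence, and the family number usually tells the class of cargo: amino acids, sugars, metals, mitochondrial metabolites and so on. Most work as importers, exporters or exchangers driven by the gradient of sodium, protons or another solute. In the prostate, luminal cells are known for accumulating zinc and secreting citrate, and androgen is known to drive their secretory metabolism.

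The arrays behind these values were close to each other. Array medians over all probe sets ran from 2.97 to 3.06 and the share of probe sets above 4 from 37.3% to 38%. Over the 152 members, arrays of one group correlated at 0.9905 to 0.9962 and arrays of different groups at 0.7867 to 0.9331, and no array stood apart from its group. SRF averaged 4.87 log2 with SRF siRNA and R1881, against 6.30 with control siRNA and R1881, and 4.74 with SRF siRNA and vehicle, against 6.07 with control siRNA and vehicle. Luminal markers KLK3, KLK2, TMPRSS2, FOLH1, KRT8 and KRT18 were measured in all groups with means of at least 5.80, whereas the basal markers KRT5 and KRT14 and the leukocyte markers PTPRC and CD3E averaged at most 3.16 in every group. LYZ, a further leukocyte gene, averaged 4.03 with SRF siRNA and R1881 and at most 2.89 in the other groups. The endothelial gene VWF averaged 4.51 with SRF siRNA and R1881, 5.27 with SRF siRNA and vehicle, 4.61 with control siRNA and R1881, and 6.11 with control siRNA and vehicle. The labelled line thus carried its luminal markers. Of 5 fibroblast genes COL3A1 moved with the groups, at a mean of 4.07 with SRF siRNA and R1881, 7.92 with SRF siRNA and vehicle, 2.97 with control siRNA and R1881, and 6.45 with control siRNA and vehicle. The 5 summed, on the linear scale, to 81.3 to 98.4, 274 to 332.9, 87.5 to 108.5, and 145.4 to 178.9 in those groups, and the part of LYZ, VWF and these genes in the results was not tested.

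With control siRNA, R1881 raised 65 of the 152 solute carrier genes and lowered 35 (limma, adjusted p under 0.05 over 10265 genes). Among all genes tested 26.9% were higher and 33.8% lower, against 42.8% and 23% of the members. At least 2-fold changes were 24 rises and 6 falls, that is 15.8% and 3.95% of the members, against 7.08% and 7.06% of all genes. The members' median change was 0.14 on the log2 scale and that of all genes -0.05. Among the 132 members above 5 on every array, 54 rose and 30 fell (40.9% and 22.7%), against 28.4% and 34.3% of the 8202 genes above 5 on every array. Of these 132 members, 17 rose and 4 fell at least 2-fold (12.9% and 3.03%). The 2-fold share was not counted over the 8202 genes, so these counts describe the members alone. A measure that may reflect RNA quality moved with the treatment, and what lay behind it was not tested. The log2 signal of the 3-prime GAPDH control minus that of its 5-prime control was 0.445 to 0.491 on the R1881 arrays, against 0.067 to 0.244 on the vehicle arrays. With that difference as a covariate 44 members rose and 25 fell (28.9% and 16.4%, against 14.5% and 23.7% of all genes).

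The gene with the largest rise was SLC15A2, at 3:121894401-121944188 (GRCh38.p14), which encodes a proton-coupled importer of di- and tripeptides. Its log2 signal was 8.31, 8.10 and 8.14 on the R1881 arrays, against 2.31, 2.75 and 3.02 on the vehicle arrays. It lay in the range of the dimmest probe sets without androgen and well above it with androgen, with no overlap. The log2 change was 5.49 ± 0.17 (SE), and 4.18 when values under 4 were set to 4. SLC15A2 met the level rule through R1881 arrays alone. A further SLC15A2 probe set that passed the filter rose by 3.31. The other member of its class, SLC15A4, named after its values were seen, did not pass the test (0.12).

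The gene with the largest fall was SLC44A1, a choline transporter at 9:105244651-105438504. It had 7.51, 7.44 and 7.27 on the R1881 arrays, against 9.52, 9.88 and 9.88 on the vehicle arrays. The groups were more than 2 log2 units apart at their nearest arrays, and the change was -2.35 ± 0.11 (adjusted p = 4.07e-09). Its 5 passing probe sets changed by -2.40 to -1.47, all in the same direction.

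The promoters of these genes, with that of SLC26A3, whose R1881 response was seen with control siRNA alone, and that of SLC25A46, the member promoter that held a match to the SRF motif, are shown for the letters around their start sites. SLC25A46 was picked for that match and not by the naming rule. Each is the RefSeq sequence (GRCh38.p14) from 250 bases before to 50 after the gene's start, 5′ to 3′ on the gene's strand. Capitals mark the androgen response element half-site TGTTCT in SLC15A2, chr3:121894151-121894450 (+), and in SLC44A1, chr9:105244401-105244700 (+), and the CArG box, the motif SRF is known to bind, in SLC25A46, chr5:110738757-110739056 (+). SLC26A3, chr7:107803174-107803473 (-), has no capitals because it held neither motif.
SLC15A2: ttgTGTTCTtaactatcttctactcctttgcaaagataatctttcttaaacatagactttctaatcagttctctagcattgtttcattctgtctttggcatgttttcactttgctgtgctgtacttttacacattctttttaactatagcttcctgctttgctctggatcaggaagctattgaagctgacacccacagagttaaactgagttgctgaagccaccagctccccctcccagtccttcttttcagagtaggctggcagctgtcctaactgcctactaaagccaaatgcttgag
SLC44A1: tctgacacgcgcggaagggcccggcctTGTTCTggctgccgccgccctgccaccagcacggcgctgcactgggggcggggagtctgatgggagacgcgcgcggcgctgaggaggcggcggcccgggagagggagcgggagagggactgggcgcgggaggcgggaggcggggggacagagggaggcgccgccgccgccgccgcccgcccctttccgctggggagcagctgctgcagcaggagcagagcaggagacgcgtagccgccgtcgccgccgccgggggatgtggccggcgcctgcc
SLC26A3: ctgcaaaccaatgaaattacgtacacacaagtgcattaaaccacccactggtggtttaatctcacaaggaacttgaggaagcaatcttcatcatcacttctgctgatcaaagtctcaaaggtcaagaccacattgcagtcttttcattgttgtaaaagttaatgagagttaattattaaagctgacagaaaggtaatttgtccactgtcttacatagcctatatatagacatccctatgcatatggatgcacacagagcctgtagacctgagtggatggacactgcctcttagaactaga
SLC25A46: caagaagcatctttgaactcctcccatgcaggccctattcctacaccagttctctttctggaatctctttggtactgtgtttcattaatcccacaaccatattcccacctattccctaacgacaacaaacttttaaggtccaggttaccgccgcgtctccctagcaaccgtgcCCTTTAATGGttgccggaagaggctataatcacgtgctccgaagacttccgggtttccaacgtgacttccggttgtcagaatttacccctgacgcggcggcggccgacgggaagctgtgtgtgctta

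The half-site began 247 bases before the start in SLC15A2 and 223 bases before it in SLC44A1, so the gene that rose most and the gene that fell most both held one. Searched on both strands, TGTTCT was in 13 of the 130 member promoters with a RefSeq entry (10%), against 14.9% of 27305 promoters of all genes. It was in 5 of the 58 promoters of members that R1881 raised and in 2 of the 32 of members that it lowered. The CArG box, which reads the same on both strands, was in 1 member promoter (0.769%), against 1.29% of all promoters, and began 77 bases before the start of SLC25A46. The GC box GGGCGG, the letters known to be bound by Sp1 family factors, was in 93 of 130 (71.5%), against 44.6% of all promoters. Member promoters had a median GC content of 67%, against 58.3% for all. A match is a run of letters in this window and not a measured binding site.

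Amino acid carriers went both ways, with 11 of 23 higher and 9 lower after R1881. For this class and those below, 26.9% of all genes tested were higher and 33.8% lower. No class was tested as a set. SLC43A1, a sodium-independent carrier of branched-chain amino acids, had 8.81, 8.70 and 8.62 on the R1881 arrays, against 4.75, 5.04 and 5.11 on the vehicle arrays. Its change of 3.74 ± 0.15 (adjusted p = 9.17e-10) was the largest of the class, with no overlap. SLC1A4, a neutral amino acid exchanger, had 6.03, 6.20 and 6.11 with R1881, against 3.57, 3.81 and 3.96 with vehicle. SLC1A5, the related exchanger known as a main route for glutamine, had 9.58, 9.62 and 9.53 with R1881, against 8.14, 7.75 and 7.83 with vehicle. Both rose on every array, by 2.33 ± 0.17 (adjusted p = 1.66e-07) and 1.67 ± 0.12 (adjusted p = 1.49e-07). SLC1A4 lay under 4 on each of these vehicle arrays, and with values under 4 set to 4 its change was 2.11. It lay above 5 on 7 arrays of the series, and in this comparison only on those with R1881. Its choice thus leaned on R1881 arrays, which its p-value does not allow for. The cystine importer SLC7A11 and the glutamine carriers SLC38A1 and SLC38A2 also rose, by 1.56, 0.93 and 0.89.

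The amino acid carriers that fell included SLC6A6, the taurine transporter, with 3.98, 4.94 and 3.63 on the R1881 arrays, against 5.90, 5.38 and 5.87 on the vehicle arrays. Its change of -1.53 ± 0.26 (adjusted p = 0.000252) passed the test, but with the GAPDH covariate it was -1.21 with an adjusted p of 0.0788. SLC38A9, a lysosomal carrier known as an arginine sensor, had 6.08, 5.84 and 6.0 with R1881, against 7.08, 7.08 and 7.27 with vehicle (change -1.17 ± 0.09, adjusted p = 2.34e-07). SLC1A1, the neuronal-type glutamate transporter, fell by 0.92 while the cationic amino acid carrier SLC7A2 changed by -0.95. SLC7A2 lay under 4 on all 6 of these arrays, and with values under 4 set to 4 its change was 0.00. SLC6A11, a GABA transporter, changed by -0.61, but by -0.30 without the first vehicle array and by -0.23 with the GAPDH covariate, and met the level rule through vehicle arrays alone.

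**Figure D1:**
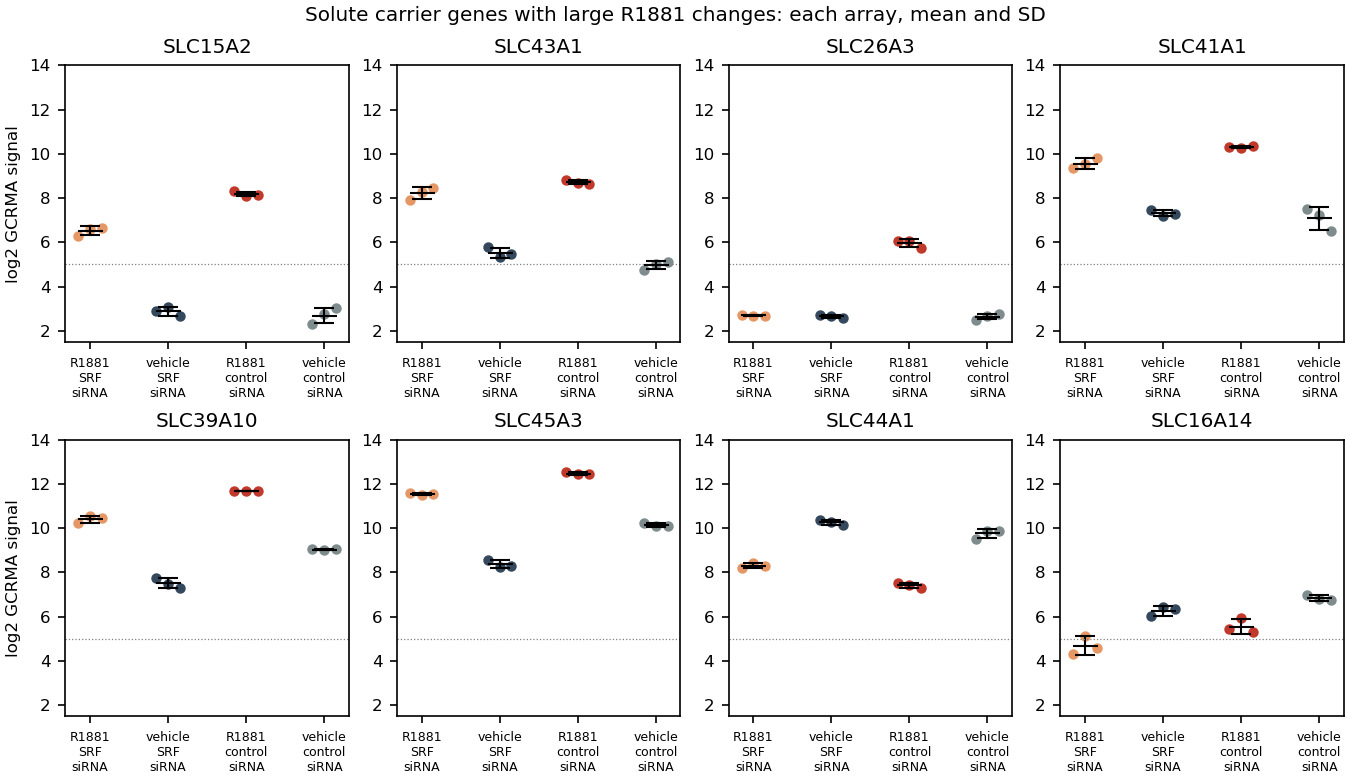
The log2 GCRMA signal (vertical axis) of 8 solute carrier genes in 4 groups (horizontal axis), with a point for each array and a bar for the mean and SD of 3 arrays; the dotted line is the level of 5 used to choose members. SLC15A2 lies at 8.10 to 8.31 with R1881 and control siRNA and under 3.1 in both vehicle groups, SLC26A3 leaves the dim range only with R1881 and control siRNA, and SLC44A1 is lower with R1881 under either siRNA.

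Metal and heme carriers counted 24, of which 11 rose and 4 fell with R1881. SLC41A1, a magnesium transporter, had 10.32, 10.28 and 10.36 on the R1881 arrays, against 7.51, 7.24 and 6.49 on the vehicle arrays. SLC39A10, a zinc importer of the ZIP family, had 11.68, 11.66 and 11.68, against 9.06, 8.99 and 9.04. Neither pair of groups overlapped, and the changes were 3.24 ± 0.21 (adjusted p = 6.73e-08) and 2.64 ± 0.11 (adjusted p = 1.33e-09). SLC39A6, another ZIP zinc importer, rose by 0.42, a call lost with the GAPDH covariate (0.21, adjusted p = 0.209). It was also lost with the median of its passing probe sets (0.13, adjusted p = 0.436). In the other direction, SLC30A4, a zinc exporter of the ZnT family, had 11.57, 11.53 and 11.57 with R1881, against 12.52, 12.68 and 12.76 with vehicle (change -1.09 ± 0.08, adjusted p = 2.18e-07). SLC39A8, a ZIP carrier of zinc, manganese and cadmium, fell by 0.78. SLC30A9 fell by 0.27 by its brightest probe set, a call lost on leaving out any 1 of 2 arrays (adjusted p = 0.0593 and 0.0642), while its other passing probe set rose by 0.53, so its direction was not settled.

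Sugar, polyol and related carriers counted 14, of which 5 rose and 2 fell. SLC45A3, known as prostein, a prostate-enriched protein and a frequent fusion partner of ETS genes in prostate cancer, had 12.52, 12.42 and 12.45 on the R1881 arrays, against 10.22, 10.07 and 10.07 on the vehicle arrays. The change was 2.35 ± 0.09 (adjusted p = 5.37e-10), and its other probe set rose by 2.28. SLC2A3, a high-affinity glucose transporter, had 3.80, 5.06 and 4.40, against 3.24, 3.28 and 3.31. Its change was 1.14 ± 0.35, with a wide spread among the R1881 arrays, through which alone it met the level rule. It was 0.82 without the second of them, 0.48 with values floored at 4 and 0.15 with the GAPDH covariate. SLC5A3, the sodium-coupled importer of myo-inositol, fell by 0.66.

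Among organic anion, vitamin and ion carriers, single genes moved far. SLC10A7, a relative of the bile acid carriers, had 7.78, 7.64 and 7.88 on the R1881 arrays, against 5.36, 5.59 and 5.03 on the vehicle arrays (change 2.44 ± 0.13, adjusted p = 1.14e-08). SLC16A14, an orphan of the monocarboxylate carriers, had 5.43, 5.92 and 5.30, against 6.99, 6.79 and 6.74 (change -1.29 ± 0.21, adjusted p = 0.000181). In the organic anion class of 7 members 4 rose, and SLC16A14 was the 1 that fell. SLC19A2, a thiamine importer, had 10.79, 10.98 and 10.99 with R1881, against 9.16, 8.91 and 8.89 with vehicle, a rise of 1.93 ± 0.10 (adjusted p = 7.34e-09). SLC46A1, the proton-coupled folate importer, had 6.42, 6.38 and 6.42, against 7.40, 7.65 and 7.51, a fall with a change of -1.11 ± 0.09 (adjusted p = 3.4e-07). Each vitamin carrier group was separate from its vehicle group, and in that class of 4 the members divided into 2 higher and 2 lower.

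In the class of bicarbonate, chloride, sodium and proton exchangers 4 of 14 rose, 2 fell and 8 did not pass the test. Of all genes tested 26.9% were higher and 33.8% lower. The 4 include SLC26A3, whose rise was built into its choice. SLC26A3, a chloride and bicarbonate exchanger known from the colon, had 6.08, 6.06 and 5.74 on the R1881 arrays, against 2.50, 2.68 and 2.75 on the vehicle arrays. Its change was 3.31 ± 0.10, and 1.96 with values under 4 set to 4. SLC26A2, a sulfate carrier of the same family, rose by 1.16. These R1881 arrays were the ones through which SLC26A3 met the level rule.

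Mitochondrial carriers of the SLC25 family were the largest class, with 13 of 32 higher, 6 lower and 13 not past the test. SLC25A20, which brings acylcarnitines into the matrix for fatty acid oxidation, had 8.63, 8.58 and 8.57 on the R1881 arrays, against 7.18, 7.21 and 6.93 on the vehicle arrays, a rise of 1.49 ± 0.08 (adjusted p = 2.06e-08). SLC25A33, a pyrimidine nucleotide carrier, had 11.63, 11.60 and 11.60, against 10.35, 10.22 and 10.10, a rise of 1.39 ± 0.09 (adjusted p = 6.07e-08). Both were separate from vehicle on every array. SLC25A5, an ADP/ATP exchanger of the inner membrane, rose by 0.89. SLC25A3, the phosphate carrier, fell by 0.24, a call lost without any 1 of 3 arrays (adjusted p = 0.0641 to 0.0713). SLC25A16 rose by 0.68 by its brightest probe set, but of its 4 passing probe sets 1 fell by 0.63.

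Carriers of nucleotide sugars and acetyl-CoA, which feed the Golgi, gave 5 rises and 2 falls among 7 members. SLC33A1, which takes acetyl-CoA into the endoplasmic reticulum, had 9.93, 9.93 and 9.96 on the R1881 arrays, against 8.70, 8.79 and 8.85 on the vehicle arrays (change 1.16 ± 0.07, adjusted p = 3.52e-08). SLC35A3, a carrier of UDP-N-acetylglucosamine, had 10.28, 10.34 and 10.34, against 9.31, 9.17 and 9.21 (change 1.09 ± 0.07, adjusted p = 1.12e-07). Neither overlapped. Fatty acid and choline carriers gave 2 rises and 3 falls among 8, with SLC44A4, a carrier of thiamine pyrophosphate, higher by 1.08, and the very long-chain acyl-CoA synthetase SLC27A2 lower by 0.49. Carriers of all other families gave 5 rises and 0 falls among 6, led by SLC61A1 (0.735) and SLC67A1 (0.683). Of the 6 symbols that name no carrier, SLC4A1AP rose by 0.33 and SLC25A5-AS1 changed by 1.16, while SLC9A3-OT1, SLC12A2-DT and SLC2A4RG fell by 0.50, 0.46 and 0.22. SLC71A3P changed by 0.58 and did not pass the test (adjusted p = 0.077), but was called with the GAPDH covariate (1.67, adjusted p = 0.00347). The calls of SLC4A1AP, SLC12A2-DT and SLC2A4RG were lost on leaving out 1 array, and with the GAPDH covariate those of SLC4A1AP, SLC12A2-DT and SLC2A4RG were lost, and the SLC25A5-AS1 change was 0.87. SLC25A5-AS1 met the level rule through these R1881 arrays alone. It and SLC25A5 overlap on the X chromosome in this annotation and were read by different probe sets.

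**Figure D2:**
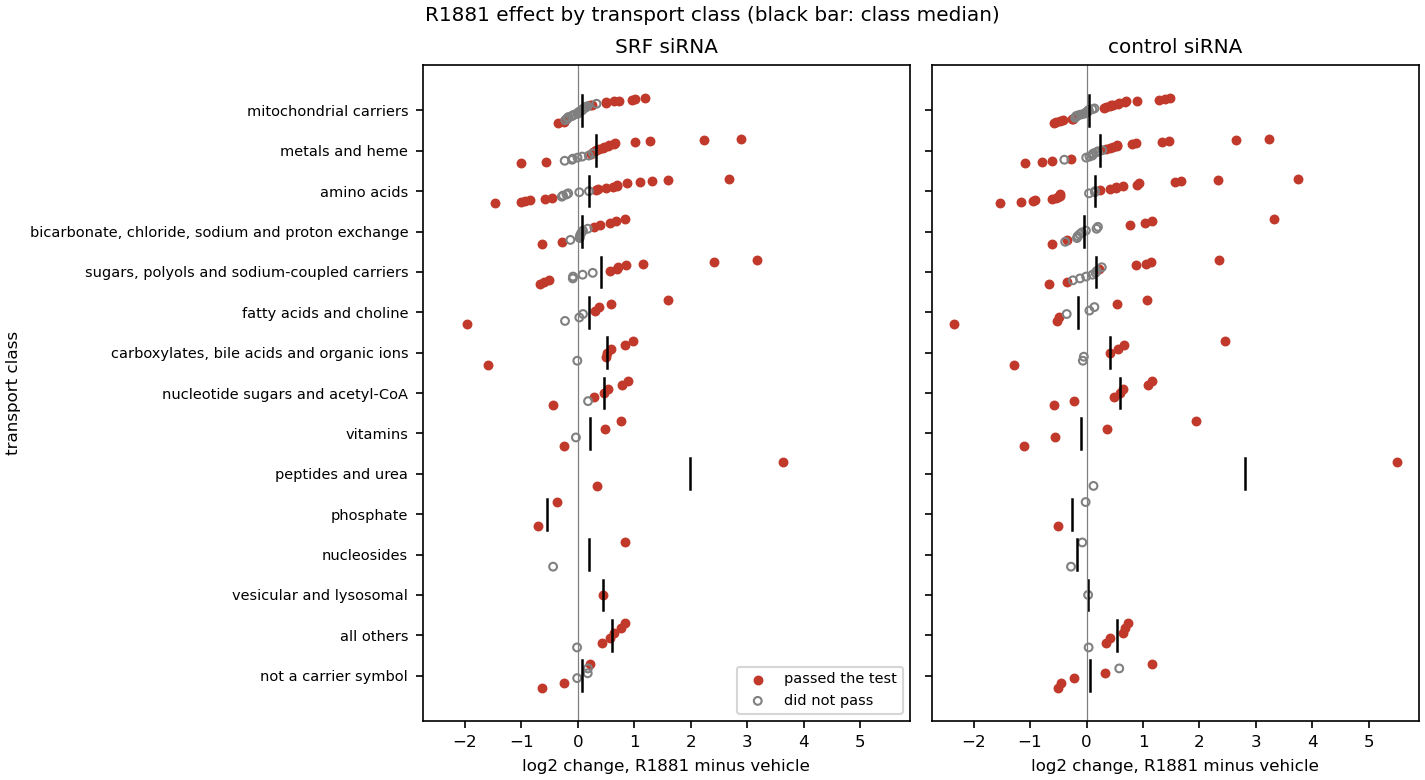
The log2 change with R1881 (horizontal axis, R1881 minus vehicle) of each of the 152 members by transport class (vertical axis), in cells with SRF siRNA (left) and with control siRNA (right); filled points passed the test, open points did not, and black bars are class medians. The nucleotide sugar and acetyl-CoA class has medians of 0.46 and 0.60, and amino acid carriers reach 2.68 at the top with SRF siRNA, against 3.74 with control siRNA.

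With SRF siRNA, R1881 raised 73 members and lowered 25, that is 48% and 16.4%, against 25.5% and 27.7% of all genes. At least 2-fold changes were 15 rises and 5 falls (9.87% and 3.29%, against 5.56% and 5.1% of all genes), and the median change was 0.21, against -0.03 for all genes. Of the 132 members above 5 on every array 67 rose and 21 fell, against 27.1% and 27.6% of the genes above 5 on every array. Metal and heme carriers gave 15 rises and 2 falls among 24, and mitochondrial carriers 9 rises and 4 falls among 32. The GAPDH difference was 0.368 to 0.641 on the R1881 arrays and 0.315 to 0.393 on the vehicle arrays, and with it as a covariate 66 members rose and 22 fell (43.4% and 14.5%, against 20.5% and 26.4% of all genes).

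The genes with large changes under SRF siRNA were mostly those named above. SLC15A2 had 6.29, 6.60 and 6.66 on the R1881 arrays, against 2.91, 3.08 and 2.65 on the vehicle arrays (change 3.64 ± 0.17, and 2.52 with values under 4 set to 4). SLC45A3 had 11.57, 11.49 and 11.54, against 8.56, 8.24 and 8.27 (change 3.18 ± 0.09, adjusted p = 5.48e-11). SLC39A10 had 10.22, 10.53 and 10.46, against 7.76, 7.48 and 7.30 (change 2.89 ± 0.11, adjusted p = 8.63e-10). SLC45A3 and SLC39A10 were separate from vehicle on every array, as was SLC15A2, for which this was built into its choice. SLC43A1 and SLC41A1 rose by 2.68 and 2.24. SLC2A3 changed by 2.41, with R1881 arrays of 5.22, 4.82 and 6.34, against 3.36, 2.89 and 2.89. With values under 4 set to 4 the SLC2A3 change was 1.46. SLC44A4 rose by 1.60 and SLC1A4 by 1.59.

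Falls under SRF siRNA were led by SLC44A1, with 8.20, 8.42 and 8.28 on the R1881 arrays, against 10.38, 10.26 and 10.15 on the vehicle arrays (change -1.96 ± 0.11, adjusted p = 2.77e-08). SLC16A14 had 4.30, 5.14 and 4.58, against 6.02, 6.43 and 6.33 (change -1.58 ± 0.21, adjusted p = 4.7e-05). SLC7A2 had 3.71, 4.53 and 4.23, against 5.73, 5.52 and 5.58 (change -1.46 ± 0.17), and these vehicle arrays were the ones through which it met the level rule. The groups of SLC44A1 and SLC16A14 did not overlap, nor did those of SLC7A2, for which this was built into its choice. SLC1A1 and SLC39A8 fell by 1.01 each, SLC6A6 by 0.93, SLC38A9 by 0.85 and the phosphate importer SLC20A1 by 0.71. The SLC6A6 call was lost with the GAPDH covariate (-0.80, adjusted p = 0.0572), and on dropping array 3 from each SRF siRNA group (-0.92, adjusted p = 0.0542).

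The R1881 comparisons under the 2 siRNAs share no arrays. Of the 152 members, 73 were called in both, 70 of them in the same direction, 25 with SRF siRNA alone, 27 with control siRNA alone and 27 in neither. That is 48% in both, 46.1% in the same direction, 16.4%, 17.8% and 17.8%, against 41.5%, 39.9%, 11.6%, 19.1% and 27.7% of all genes. Over the 152 members the changes correlated at r = 0.827 (Spearman 0.774), close to 0.804 (0.773) over all genes tested, as a description across genes that share these arrays.

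The difference between the R1881 effects, SRF siRNA minus control siRNA, passed the test for 47 members, above 0 for 25 and below 0 for 22 (16.4% and 14.5%, against 13.2% and 10.5% of all genes). At least 2-fold differences were 0 above and 6 below (3.95%, against 2.59% above and 2.42% below for all genes). The 6 include SLC26A3, SLC15A2 and SLC25A5-AS1, which met the level rule through R1881 arrays alone. Among the 132 members above 5 on every array, at least 2-fold differences were 0 above and 2 below (1.52%). That 2-fold share was not counted over all genes above 5 on every array. Of the 132 members above 5 on every array 25 lay above 0 and 15 below (18.9% and 11.4%), against 13.3% and 10.4% of such genes. With the GAPDH covariate the count was 26 above and 13 below (17.1% and 8.55%, against 11.6% and 7.05% of all genes). Among the 22 below 0, 13 rose under both siRNAs, 8 rose with control siRNA alone and 1 fell with SRF siRNA alone, so that 21 had a change nearer to 0 with SRF siRNA. Among the 25 above 0, 12 rose with SRF siRNA alone, 4 rose under both, 4 fell with control siRNA alone, 2 fell under both and 3 were called in opposite directions. In 17 of them the change was larger in size with SRF siRNA and in 8 it was smaller. These splits were not counted over all genes, so they describe the members alone. A gene raised with control siRNA and called below 0 has a change nearer to 0 with SRF siRNA by arithmetic, unless its change reverses.

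The 6 genes with the largest differences below 0 were all androgen-raised with control siRNA. SLC26A3 had 2.72, 2.69 and 2.69 with SRF siRNA and R1881, against 2.72, 2.68 and 2.59 with SRF siRNA and vehicle. Its R1881 change was thus 0.04 with SRF siRNA, against 3.31 with control siRNA, and the difference was -3.28 ± 0.14, or -1.96 with values under 4 set to 4. With SRF siRNA no array left the dim range, so this difference is between a measured level and one near background, and it was built into the choice of the gene. SLC15A2 differed by -1.85 ± 0.24, or -1.67 with values under 4 set to 4. It changed by 3.64 under SRF siRNA, against 5.49 under control siRNA. SLC15A2 met the level rule through R1881 arrays alone. Its vehicle means were near background, at 2.88 with SRF siRNA and 2.69 with control siRNA. Its second passing probe set gave 1.18 under SRF siRNA, against 3.31.

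SLC10A7 had 6.31, 6.26 and 6.43 with SRF siRNA and R1881, against 5.39, 5.18 and 5.47 with SRF siRNA and vehicle. Its R1881 change of 0.98, against 2.44 with control siRNA, differed by -1.46 ± 0.18 (adjusted p = 0.000159). SLC19A2 had 10.07, 10.23 and 10.37, against 9.44, 9.45 and 9.47, and its change of 0.77, against 1.93, differed by -1.16 ± 0.14 (adjusted p = 0.000104). SLC43A1 changed by 2.68, against 3.74, a difference of -1.06 ± 0.21 (adjusted p = 0.00365). These 3 kept a rise under SRF siRNA that was smaller than under control siRNA. SLC25A5-AS1 changed by -0.01, against 1.16, a difference of -1.17 ± 0.29 likewise built into its choice, and -1.0 with the GAPDH covariate.

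Differences above 0 were smaller. SLC25A37, mitoferrin, which brings iron into mitochondria, had 8.46, 8.69 and 8.51 with SRF siRNA and R1881, against 7.89, 7.92 and 7.64 with SRF siRNA and vehicle. With control siRNA it had 7.68, 7.61 and 7.62, against 7.75, 7.85 and 7.92. Its change was 0.73 under SRF siRNA, against -0.20 under control siRNA (adjusted p = 0.0722), and the difference was 0.94 ± 0.13 (adjusted p = 0.000288).

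SLC29A2, a nucleoside carrier, changed by 0.83, against -0.07, a difference of 0.90 (adjusted p = 0.00598). SLC39A4, a zinc importer, changed by 1.00, against 0.11, also a difference of 0.90 (adjusted p = 0.000478). For SLC66A3, a member of the PQ-loop family, the change was 1.11, against 0.23, and the difference 0.87 (adjusted p = 0.000123). In SLC46A1 R1881 lowered the signal less, by 0.24, against 1.11, with arrays of 6.04, 6.33 and 6.14, against 6.46, 6.41 and 6.38 under SRF siRNA. SLC45A3 rose by 3.18, against 2.35, a difference of 0.84 (adjusted p = 0.000531), and its levels under SRF siRNA were lower in both treatments. Of these 6 genes SLC25A37, SLC29A2 and SLC39A4 rose with SRF siRNA and did not pass the test with control siRNA, and SLC66A3 and SLC45A3 rose with both.

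SLC2A4RG, SLC27A2 and SLC33A2 were called in opposite directions by R1881. SLC27A2 had 7.56, 7.48 and 7.64 with SRF siRNA and R1881, against 7.23, 7.21 and 7.33 with SRF siRNA and vehicle. With control siRNA it had 6.95, 7.21 and 6.81, against 7.46, 7.46 and 7.51. Its changes were 0.30 and -0.49, a difference of 0.79 (adjusted p = 0.00121), although its other probe set changed by 0.02 under SRF siRNA, and the rise under SRF siRNA was lost on leaving out any 1 of 2 arrays (adjusted p = 0.0549 and 0.0584). SLC33A2 changed by 0.28 and -0.22 (difference 0.50, adjusted p = 0.00174) and SLC2A4RG, a transcription factor of the glucose transporter gene SLC2A4, by 0.21 and -0.22 (difference 0.43, adjusted p = 0.0104). The single calls behind these signs were small. Those of SLC2A4RG were lost under several alternatives, and the SLC33A2 fall under control siRNA was lost with the GAPDH covariate (-0.20, adjusted p = 0.217).

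SLC25A46, an outer mitochondrial membrane protein and the gene with the CArG box shown above, had 8.75, 8.87 and 8.95 with SRF siRNA and R1881, against 9.06, 8.89 and 8.81 with SRF siRNA and vehicle. With control siRNA it had 9.30, 9.32 and 9.25, against 8.72, 8.74 and 8.98. R1881 raised it by 0.48 under control siRNA, whereas the change was -0.07 under SRF siRNA, a difference of -0.54 ± 0.13 (adjusted p = 0.0109). It is a single gene, and the CArG box was no more frequent among member promoters than among all.

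**Figure D3:**
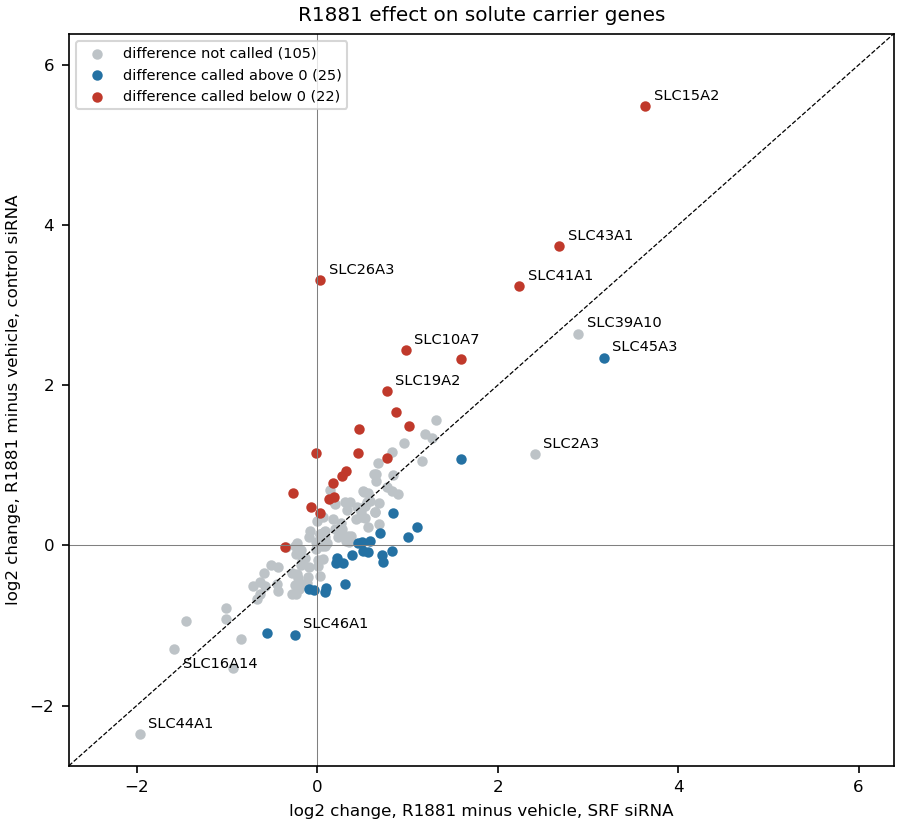
Each point is one of 152 members, with its R1881 change (log2, R1881 minus vehicle) under SRF siRNA on the horizontal axis and under control siRNA on the vertical axis; the dashed line is equality and colours mark the 25 differences called above 0 and the 22 called below 0. SLC26A3 lies at 0.04 and 3.31, far from the line, and SLC44A1 lies near it at -1.96 and -2.35.

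SRF siRNA in vehicle raised 44 members and lowered 39 relative to control siRNA (28.9% and 25.7%, against 30.7% and 25% of all genes). At least 2-fold changes were 8 rises and 9 falls (5.26% and 5.92%, against 5.09% and 4.19% of all genes). The share of members called was thus close to that of all genes. Of the 132 members above 5 on every array 37 rose and 36 fell (28% and 27.3%), against 31.6% and 26.6% of such genes. Of these 132 members, 5 rose and 8 fell at least 2-fold (3.79% and 6.06%), a share not counted over all such genes. By class, amino acid carriers gave 9 rises and 6 falls among 23, metal carriers 7 and 6 among 24, and mitochondrial carriers 7 and 9 among 32. The GAPDH difference was 0.315 to 0.393 with SRF siRNA, against 0.067 to 0.244 with control siRNA, and with it as a covariate 32 members rose and 29 fell (21.1% and 19.1%, against 18.5% and 19.9% of all genes).

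The largest rise was that of SLC6A6, the taurine transporter, with 8.83, 8.67 and 8.80 with SRF siRNA, against 5.90, 5.38 and 5.87 with control siRNA. The change was 3.05 ± 0.26 (adjusted p = 1.37e-06), with no overlap. SLC7A2, a carrier of arginine and lysine, had 5.73, 5.52 and 5.58, against 3.37, 3.38 and 3.68 (change 2.14 ± 0.17). SLC4A11, a carrier known from corneal endothelium, had 6.35, 5.81 and 5.83, against 4.41, 4.46 and 3.84 (change 1.75 ± 0.23). The control siRNA arrays of both lay under 4.5, near the dim range, and both met the level rule through SRF siRNA arrays alone. SLC26A2, the sulfate carrier, had 8.35, 8.35 and 8.37, against 6.82, 7.14 and 6.83 (change 1.43 ± 0.09, adjusted p = 1.24e-07). SLC31A1, the high-affinity copper importer, rose by 1.39, SLC37A3 by 1.13, the mitochondrial folate carrier SLC25A32 by 1.04 and SLC38A1 by 1.00.

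The largest fall was that of SLC4A4, a sodium bicarbonate cotransporter, with 8.02, 7.66 and 8.06 with SRF siRNA, against 9.98 to 10.22 on the 3 arrays with control siRNA (change -2.15 ± 0.11, adjusted p = 2.75e-08). SLC1A1, the glutamate transporter, had 5.26, 5.09 and 4.82, against 7.17, 7.06 and 7.19 (change -2.08 ± 0.16, adjusted p = 6.94e-07). SLC44A3, a choline transporter-like protein, had 5.46, 5.32 and 5.48, against 7.59, 7.30 and 7.0 (change -1.88 ± 0.16, adjusted p = 1.35e-06). None of these groups overlapped, and all 5 passing probe sets of SLC4A4 changed by between -2.94 and -1.07. SLC45A3 and SLC39A10, both raised by R1881, fell by 1.76 and 1.52 in vehicle. SLC7A11 fell by 1.39, with 7.40, 7.04 and 7.15, against 8.61, 8.52 and 8.61, SLC7A8, a carrier of large neutral amino acids, by 1.24 and SLC46A1 by 1.10. The SLC46A1 fall rested on 1 probe set, and with the median of its probe sets it was -0.19 (adjusted p = 0.148).

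**Figure D4:**
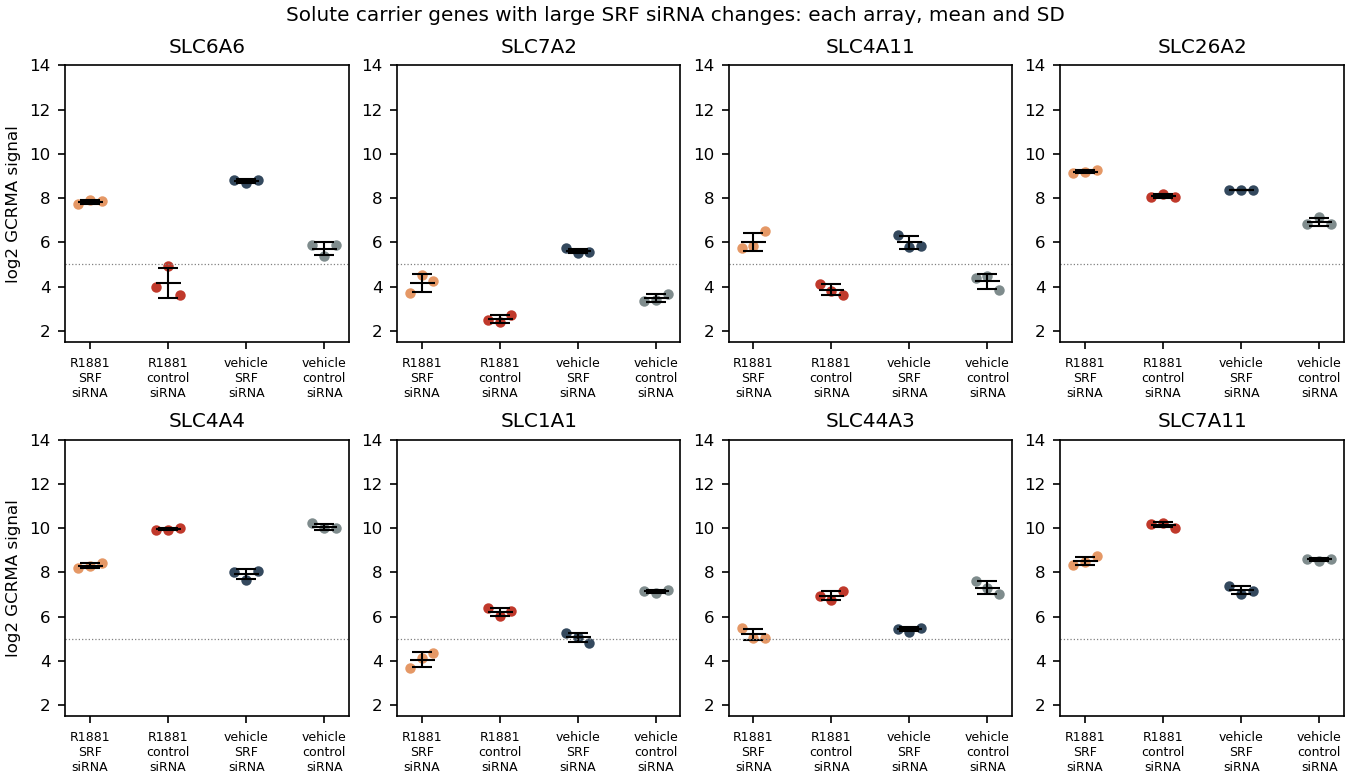
The log2 GCRMA signal (vertical axis) of 8 solute carrier genes in 4 groups (horizontal axis, each SRF siRNA group left of its control siRNA group), with a point for each array and a bar for the mean and SD of 3 arrays; the dotted line is the level of 5 used to choose members. SLC6A6 lies at 7.74 to 8.83 with SRF siRNA and at 3.63 to 5.90 with control siRNA, and SLC4A4 lies at 7.66 to 8.42 and 9.91 to 10.22.

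In R1881, SRF siRNA raised 62 members and lowered 50 (40.8% and 32.9%, against 33.6% and 25.4% of all genes). At least 2-fold changes were 11 rises and 15 falls (7.24% and 9.87%, against 6.71% and 4.9% of all genes). Of the 132 members above 5 on every array 56 rose and 41 fell (42.4% and 31.1%), against 35.1% and 27% of such genes. Of these 132 members, 6 rose and 9 fell at least 2-fold (4.55% and 6.82%), a share not counted over all such genes. The median change was 0.03, against 0.06 for all genes. The GAPDH difference overlapped here (0.368 to 0.641 with SRF siRNA, 0.445 to 0.491 with control siRNA), and with it as a covariate 62 rose and 51 fell (40.8% and 33.6%, against 33.2% and 25.7% of all genes). Sugar and polyol carriers gave 8 rises and 4 falls among 14, fatty acid and choline carriers 5 rises and 1 fall among 8.

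SLC6A6 again had the largest rise, with 7.74, 7.92 and 7.86 with SRF siRNA, against 3.98, 4.94 and 3.63 with control siRNA (change 3.66 ± 0.26, adjusted p = 2.3e-07). SLC4A11 had 5.74, 5.83 and 6.50, against 4.13, 3.81 and 3.64 (change 2.17 ± 0.23). SLC7A2 changed by 1.63, but by 0.25 with values under 4 set to 4. SLC41A3, a relative of the magnesium transporter, had 7.65, 7.93 and 7.50, against 6.20, 6.79 and 6.43 (change 1.22 ± 0.18, adjusted p = 9.62e-05). SLC17A5, which exports sialic acid from lysosomes, had 9.61, 9.51 and 9.62, against 8.27, 8.38 and 8.53 (change 1.19 ± 0.09, adjusted p = 2.87e-07). The groups of all 5 genes did not overlap, which for SLC4A11 was built into its choice. The control siRNA arrays of SLC7A2 lay under 2.8. SLC6A6 lay above 5 on 9 arrays of the series, and in this comparison only on those with SRF siRNA. SLC31A1, SLC26A2 and the lysosomal hexose carrier SLC2A6 rose by 1.16, 1.10 and 1.09.

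Falls in R1881 took in genes whose androgen response differed with the siRNA. SLC26A3 changed by -3.26, or by -1.96 with values under 4 set to 4, and SLC15A2 fell by 1.67, and both had vehicle levels near background under either siRNA. SLC10A7 fell by 1.44, and SLC25A5-AS1 changed by -1.44. The other large falls were seen in both treatments. SLC1A1 had 3.67, 4.12 and 4.34 with SRF siRNA, against 6.39, 6.04 and 6.24 with control siRNA (change -2.18 ± 0.16, adjusted p = 3.54e-07). SLC44A3 fell by 1.75 and SLC4A4 by 1.65. SLC7A11 had 8.34, 8.47 and 8.72, against 10.20, 10.21 and 10.02 (change -1.63 ± 0.11, adjusted p = 2.01e-07). SLC25A30, a mitochondrial carrier known from kidney, had 8.32, 8.23 and 8.40, against 9.77, 9.79 and 9.90 (change -1.5 ± 0.09, adjusted p = 5e-08). In each case every SRF siRNA array was under every control siRNA array.

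The SRF siRNA comparisons in R1881 and in vehicle share no arrays. Of the members, 75 were called in both, 38 higher in both, 31 lower in both and 6 in opposite directions, whereas 37 were called in R1881 alone and 8 in vehicle alone. That is 49.3%, 25%, 20.4%, 3.95%, 24.3% and 5.26%, against 41.2%, 22%, 16.5%, 2.68%, 17.8% and 14.5% of all genes. Over the 152 members the changes correlated at r = 0.755 (Spearman 0.713), against 0.705 (0.719) over all genes tested. The 6 opposite calls were those of SLC1A5, SLC5A6, SLC19A2, SLC25A24, SLC39A4 and SLC43A1, of which SLC5A6 and SLC25A24 are outside the naming rule and were added after their values were seen. SLC43A1 changed by -0.49 in R1881 and 0.57 in vehicle. SLC39A4 changed by 0.60 and -0.29, SLC5A6 by 0.52 and -0.31, and SLC25A24 by 0.45 and -0.22. Across all 4 simple comparisons 41 members were called each time and 13 were never called (27% and 8.55%, against 21.3% and 13.3% of all genes).

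**Figure D5:**
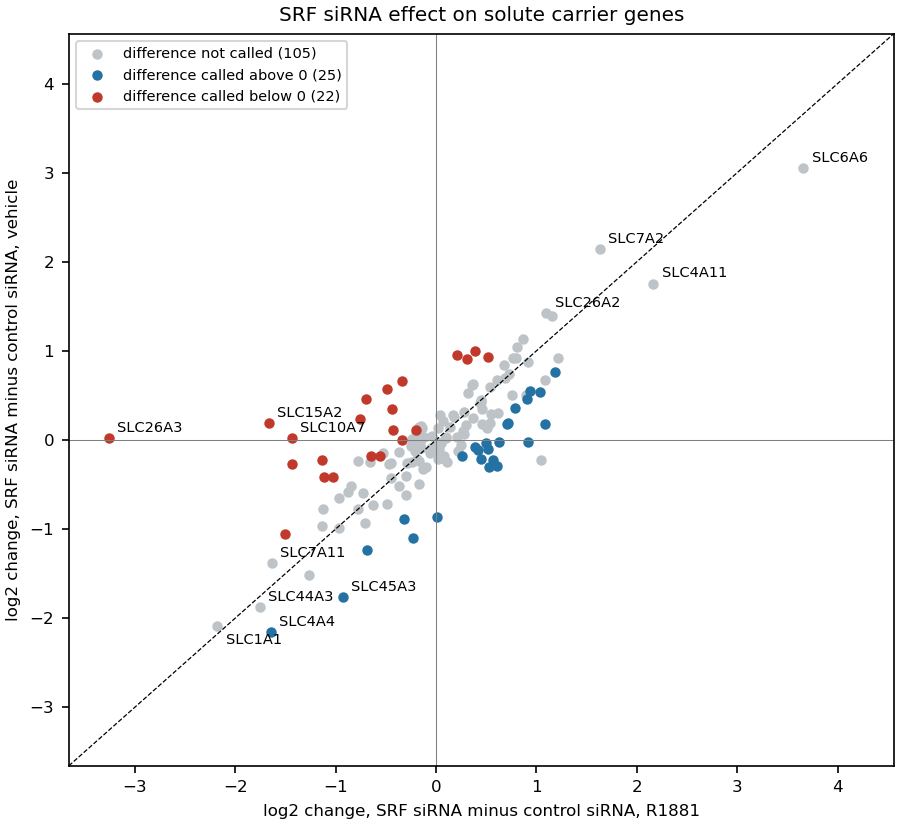
Each point is one of 152 members, with its SRF siRNA change (log2, SRF siRNA minus control siRNA) in R1881 on the horizontal axis and in vehicle on the vertical axis; the dashed line is equality and colours mark the 25 members whose R1881 effects differed above 0 and the 22 below 0. SLC6A6 lies at 3.66 and 3.05, SLC1A1 at -2.18 and -2.08, and SLC26A3 at -3.26 and 0.02.

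SLC38A2 was higher with SRF siRNA in both treatments, by 0.36 in R1881 and 0.62 in vehicle, and SLC39A6 was lower, by 0.70 and 0.93. SLC25A5 rose by 0.28 in vehicle, while its change of 0.04 in R1881 did not pass the test. SLC25A3, with 13.22, 13.22 and 13.18 with SRF siRNA and R1881, against 13.17, 13.04 and 13.10 with control siRNA and R1881, did not pass the test in either SRF siRNA comparison (0.10 in R1881, 0.03 in vehicle).

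Transport genes outside the symbol rule were followed in a list of 27 that held organic anion carriers (SLCO), uncoupling proteins, the mitochondrial pyruvate carrier and carrier partners, and 10 of them were tested. With R1881, 2 were higher and 4 lower under either siRNA, and with SRF siRNA 5 were higher and 2 lower in R1881, and 4 higher and 2 lower in vehicle. Of all genes tested, R1881 raised 25.5% and lowered 27.7% under SRF siRNA, and 26.9% and 33.8% under control siRNA. SRF siRNA raised 33.6% and lowered 25.4% in R1881, and 30.7% and 25% in vehicle. MPC2, a subunit of the mitochondrial pyruvate carrier, rose with R1881 by 1.5 under SRF siRNA and by 1.38 under control siRNA. EMB, the ancillary protein of monocarboxylate carriers called embigin, averaged 8.69 with SRF siRNA, against 5.87 with control siRNA in R1881, and 9.29 against 6.75 in vehicle (adjusted p = 1.6e-09 and 6.26e-09). SLCO4A1, an organic anion carrier, was higher with SRF siRNA by 2.04 in R1881 and 1.68 in vehicle, and SLCO5A1 fell with R1881 by 1.45 under SRF siRNA and 1.8 under control siRNA.

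The tested genes most like SLC15A2 over the 4 group means were MRPS18B and P4HA1 (Pearson r = 0.9999 each) and TESK1 (0.9998). Those most like SLC44A1 were YY1AP1 (r of 1 after rounding), PCDHB3 and CAPRIN1 (0.9999 each). With 4 points such values are easily reached: 140 tested genes were above 0.99 for SLC15A2 and 166 for SLC44A1.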

How the data were processed

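RNA of LNCaP cells was hybridised to 12 Affymetrix expression arrays of 54675 probe sets, 3 in each of 4 groups taken from the labels. The deposited values are log2 signals, 1 per probe set and array, made by the authors with GCRMA per the submitters' processing notes (version not given in the sources used here). GCRMA subtracts a modelled background, so changes against dim levels depend on it. The number of arrays limits the precision.

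Probe sets were named through the platform annotation: 41091 had 1 symbol, 1801 several and 11721 none. Of the first, 41037 were matched to RefSeq by gene number and 54 kept their platform symbol. Probe sets above 4 on at least 3 arrays were kept, the one with the highest mean stood for a gene, and 10265 genes were tested. Group means were fitted for all 12 arrays together in limma 3.58.1 (R 4.3.3), with moderated variances and Benjamini-Hochberg adjustment. Each SE belongs to a fitted change on the log2 scale, and each SD to 3 arrays. The threshold for a call was an adjusted p of 0.05. The fit was tested on simulated data. Transport classes follow the family number, and motifs were searched in RefSeq promoters (GRCh38.p14) of 130 members with an entry.

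The members, classes, lists, tests and naming rule were chosen with earlier results of these data known. Named were the 10 (R1881 under control siRNA), 8 (R1881 under SRF siRNA and both SRF siRNA comparisons) or 6 (the difference) largest called changes each way, the 10 highest mean levels, the genes at the threshold, the 2 largest R1881 changes per class of 3 or more, members called in opposite directions or with disagreeing probe sets, the non-carrier symbols, and the 3 genes most like the largest rise and the largest fall. Alternatives changed the threshold, the filter, a floor at 4, which probe sets stand for a gene, quantile normalization, trended variances, a replicate block, a GAPDH covariate and which arrays entered. Scanner files were not used here. Python 3.11.15 with matplotlib 3.10.9 drew the plots.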

Additional observations from a re-analysis of the deposited data

Results flagged for a closer look

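The R1881 effect differed between the siRNAs by a test of the difference itself (SRF siRNA minus control siRNA, limma, adjusted p under 0.05 over all genes) for 47 members, and the ones the naming rule picks are listed here. Below 0 the differences in log2 were -3.28 for SLC26A3, -1.85 for SLC15A2, -1.46 for SLC10A7, -1.17 for SLC25A5-AS1, -1.16 for SLC19A2 and -1.06 for SLC43A1. Above 0 they were 0.94 for SLC25A37, 0.90 for SLC29A2, 0.90 for SLC39A4, 0.87 for SLC66A3, 0.87 for SLC46A1 and 0.84 for SLC45A3. Differences of 0.43 for SLC2A4RG, 0.79 for SLC27A2 and 0.50 for SLC33A2 came with R1881 calls of opposite direction, higher with SRF siRNA and lower with control siRNA. In SLC26A3 the level was near background in the R1881 arrays with SRF siRNA and in both vehicle groups, and with values under 4 set to 4 its difference was -1.96. SLC26A3 and SLC25A5-AS1 met the level rule through R1881 arrays with control siRNA alone, so their differences are a description. SLC15A2 met it through R1881 arrays alone, and with values under 4 set to 4 its difference was -1.67.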

How the results depend on the processing

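Of 236 recalculated counts of called members, 233 stayed within 1.5 times the reported count. The exceptions were counts of differing R1881 effects: 13 below 0 with the GAPDH difference as a covariate, and 16 above 0 and 11 below 0 at an adjusted p under 0.01. A stricter threshold lowers counts by construction, and for the covariate the cause was not tested. With the median of a gene's passing probe sets, the R1881 change of SLC30A9 under control siRNA was 0.13 instead of -0.27 and that of SLC2A4RG under SRF siRNA -0.01 instead of 0.21, since their probe sets differ. Leaving out each array in turn gave, for R1881 under SRF siRNA, 67 to 75 members higher and 19 to 26 lower, and under control siRNA 62 to 67 and 29 to 36. It gave 21 to 26 above 0 and 18 to 22 below 0 for the difference. For SRF siRNA it gave 57 to 63 higher and 45 to 51 lower in R1881, and 41 to 45 and 33 to 39 in vehicle. Over all 10265 genes it gave 2257 to 2623 higher and 2434 to 2844 lower for R1881 under SRF siRNA. Under control siRNA these were 2527 to 2782 and 3190 to 3497. The difference gave 1094 to 1417 above 0 and 894 to 1116 below 0. SRF siRNA gave 3036 to 3493 and 2334 to 2636 in R1881, and 2832 to 3184 and 2280 to 2606 in vehicle. On dropping array 3 from each SRF siRNA group, an alternative chosen after seeing the data, the counts were 64 higher and 21 lower for R1881 under SRF siRNA and 19 and 20 for the difference, and 57 and 46 for SRF siRNA in R1881 and 45 and 33 in vehicle. Over all genes the counts in that order were 2086 and 2606, 953 and 945, 3039 and 2554, and 2879 and 2334. Same-numbered arrays did not deviate together (correlations of -0.214 to 0.099, with 0 of 18 pairs over 0.1). This shows no large shared shift, but it cannot show whether same-numbered arrays were cultured or run together. With a replicate block R1881 raised 71 and lowered 24 members under SRF siRNA, and 65 and 35 under control siRNA, the difference was called above 0 for 24 and below 0 for 21, and SRF siRNA raised 60 and lowered 47 in R1881, and 45 and 39 in vehicle. Over all genes the block gave, in that order, 2541 and 2775, 2730 and 3418, 1223 and 977, 3371 and 2550, and 3075 and 2510. Of 2604 recalculated changes of named genes, 2526 kept their direction and side of the threshold. A call was lost in 70 and gained in 6 (all SLC71A3P), and 2 reversed. In part this stability was fixed in advance. Where the array left out lay outside a comparison, or only the threshold changed, the fitted change could not move. With the GAPDH covariate 15 of the 111 named results lost a call. Detection calls were not used here, so levels near 2 to 4 are not told apart from background.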
